A study of Mus musculus with 2 samples.

Results

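Mir33, Mir185 and Mir455 are microRNA (miRNA) genes with a reported role in how much cholesterol a cell holds or takes up. They were taken by name, as 3 of the 2202 miRNA genes in the deposited tables. Small RNA below 30 nucleotides was sequenced from the adrenal gland of adult male mice, 8 to 10 months old, obtained from The Jackson Laboratory. The strain label is 5xFAD/CAST: 5xFAD names transgenic mice that model Alzheimer's disease, CAST names inbred mice derived from the wild, and no label says whether these animals carried the transgene. There were 2 libraries of 1 group, numbered as biological replicates but carrying the same donor record, so the spread between them may be partly technical. With no second group there was no contrast between conditions, and the values below are levels and differences between libraries.

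An miRNA gene is transcribed as a hairpin, from which the short 5p and 3p arms are cut. An arm in an Argonaute protein pairs with messenger RNA mainly through its seed, bases 2 to 8 from its 5′ end, and lowers the output of that message. Cells of the adrenal cortex make steroids from cholesterol, and in rodents they take much of it from high-density lipoprotein through the receptor encoded by Scarb1. Mir33 lies inside Srebf2, the gene of the transcription factor that raises sterol synthesis and uptake, and is best known for repressing the cholesterol exporter Abca1. Mir185 and Mir455 have been reported to repress Scarb1, Mir455 in steroidogenic cells.

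Mature arms of the 3 genes are given here because the seed of an arm sets where it can pair. The 5 arms come from the RefSeq table for GRCm38.p6. The other product of Mir185, miR-185-5p, was not used here, so all that follows on seeds covers 1 arm of Mir185. Capitals mark the seed.
miR-33-5p: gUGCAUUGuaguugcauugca
miR-33-3p: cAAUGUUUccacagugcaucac
miR-185-3p: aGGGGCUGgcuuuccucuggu
miR-455-5p: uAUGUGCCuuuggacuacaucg
miR-455-3p: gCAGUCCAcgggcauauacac

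No seed was shared among these 5 arms, so no pair of these genes forms a seed family through them. Among the 1738 mature arms of the table, the seeds of miR-33-5p, miR-33-3p and miR-455-3p occurred in no other gene. The seed of miR-455-5p was shared with miR-5129-3p, whose gene Mir5129 had 19 and 10 reads in replicates 1 and 2. The seed of miR-185-3p was shared with miR-7048-5p, whose gene Mir7048 had 0 reads in both. GC content ran from 42.9% in miR-33-5p to 61.9% in miR-185-3p.

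The Mir33 hairpin shows how both of its arms sit in 1 precursor of 69 bases, with the 5p and the 3p arm in capitals.
Mir33: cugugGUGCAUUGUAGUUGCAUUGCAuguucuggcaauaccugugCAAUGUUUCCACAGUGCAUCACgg

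Each gene lies in an intron of a protein-coding gene on the same strand, at a locus of its own. Mir33 (ENSMUSG00000065465.1) lies at chr15:82198122-82198190 on the plus strand of GRCm38, in intron 16 of 18 or intron 17 of 20 of Srebf2, by transcript. It starts 335 bases after the upstream exon. Mir185 (ENSMUSG00000065464.2) lies at chr16:18327401-18327465 on the minus strand, in the first intron of Tango2, which has 19444 or 31144 bases by transcript. Mir455 (ENSMUSG00000070102.1) lies at chr4:63256851-63256932 on the plus strand, in intron 10 of 60 of Col27a1, a fibrillar collagen gene known from cartilage. It ends 127 bases before the next exon. None of the 3 had another miRNA gene of its strand within 10 kb, and none was overlapped by a miRNA gene on either strand.

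The 3 counts are not shared with a near-identical copy in the annotation. None of the 3 hairpins shared 20 bases with another annotated hairpin. None of the 5 arms occurred in a transcript of another gene among 141767 GENCODE transcripts. Reads on the opposite strand numbered 0 for all 3 genes in both libraries. A read is counted for the hairpin gene and not for an arm, so the tables do not say which arm the reads came from.

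Sense miRNA reads numbered 6783227 in replicate 1 and 3084602 in replicate 2, a 2.20-fold gap in depth. Levels are given as CPM, sense reads of a gene per 1000000 sense reads of all miRNA genes. The limit that 0 reads would allow, 3 reads, was 0.442 CPM in the deeper library and 0.973 CPM in the shallower one. Intervals are Wilson 95% intervals for counting error only. A gene was taken as detected above 2 CPM in both libraries, and 334 genes were.

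Mir185 was the most abundant of the 3, Mir455 came next, and Mir33 was far lower. Mir185 had 7082 reads in replicate 1 and 3606 in replicate 2. These were 1044 CPM (1020 to 1069) and 1169 CPM (1132 to 1208), with a mean of 1107 ± 88.4 CPM (SD, n = 2). It ranked 63 of all miRNA genes by mean level, and 81.1% of the detected genes stood below it.

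Mir455 had 3372 reads in replicate 1 and 1673 in replicate 2. These were 497 CPM (481 to 514) and 542 CPM (517 to 569), with a mean of 520 ± 32.0 CPM (SD, n = 2). Its rank was 99, with 70.4% of the detected genes below it.

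Mir33 had 77 reads in replicate 1 and 62 in replicate 2. These were 11.4 CPM (9.08 to 14.2) and 20.1 CPM (15.7 to 25.8), with a mean of 15.7 ± 6.19 CPM (SD, n = 2). Replicate 2 had the higher level although it had fewer reads, because its library was shallower. Mir33 ranked 257, and 23.1% of the detected genes stood below it. It was above the detection limit in both libraries, but counting error alone was 11.4% and 12.7% of its level, against 1.19% and 1.67% for Mir185. The glands were sequenced whole, so fewer cells that hold an miRNA and less of it per cell cannot be told apart.

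**Figure D1:**
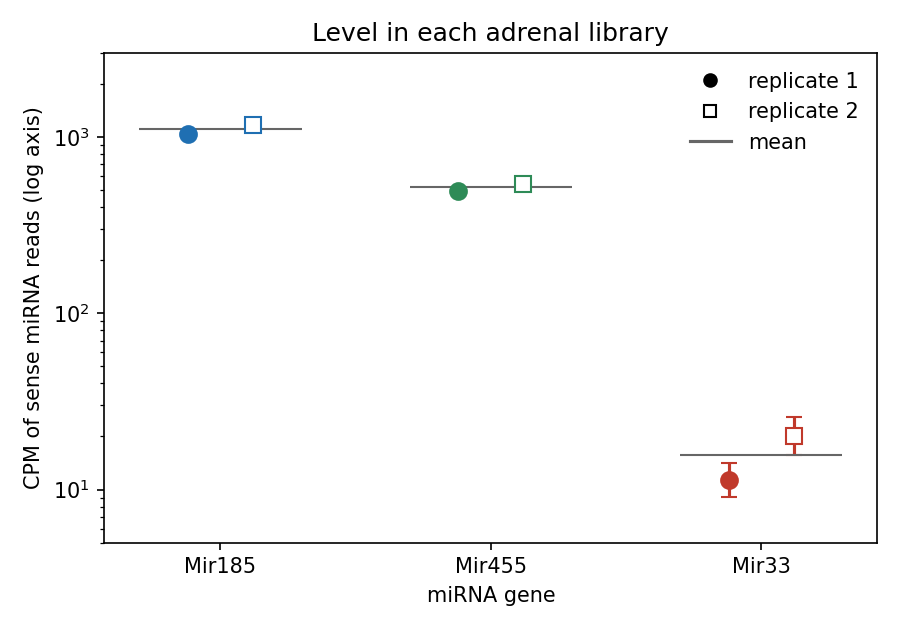
CPM of sense miRNA reads on a log axis for each gene, with replicate 1 as filled circles, replicate 2 as open squares, Wilson 95% intervals as bars and the mean as a line. Mir185 and Mir455 sit close to 1107 and 520 CPM in both libraries, and Mir33 sits at 11.4 and 20.1 CPM.

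The order Mir185 over Mir455 over Mir33 held in both libraries. A pair was called ordered only when both libraries ordered it alike and both gaps in log2(CPM + 1) exceeded the replicate difference of either gene. All 3 pairs met this rule. Mir185 had 2.10 reads per read of Mir455 in replicate 1 (exact 95% interval 2.02 to 2.19) and 2.16 in replicate 2 (2.03 to 2.29). This ratio differed between the libraries by a factor of 0.974 (0.907 to 1.05), within counting error.

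Ratios to Mir33 were less steady. Mir185 had 92.0 reads per read of Mir33 in replicate 1 (73.5 to 117) and 58.2 in replicate 2 (45.3 to 76.0). Mir455 had 43.8 (34.9 to 55.6) and 27.0 (20.9 to 35.4). The Mir185 to Mir33 ratio was 1.58-fold higher in replicate 1 (1.11 to 2.24), more than counting error gives. These ratios do not depend on how the libraries were scaled, and any capture bias shared by both libraries is part of them.

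**Figure D2:**
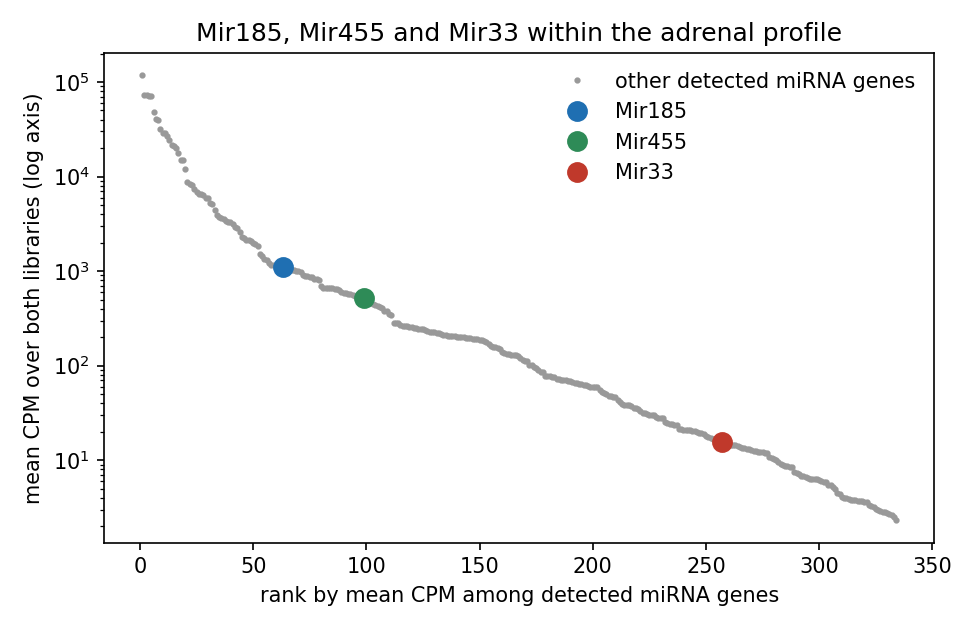
Mean CPM over both libraries on a log axis against rank for the 334 detected miRNA genes, with Mir185, Mir455 and Mir33 coloured. Mir185 and Mir455 sit in the upper part of the curve at ranks 63 and 99, and Mir33 in its lower part at rank 257. Multimapping reads are left out, so genes with a near-identical copy may sit too low on the curve.

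The neighbours of each gene in the profile did not differ from it beyond the replicate spread. Around Mir185 stood Mirlet7c-2 at 1142 ± 242, Mir872 at 1122 ± 162 and Mir409 at 1113 ± 222 CPM above it. Mir376c at 1063 ± 106, Mir140 at 1053 ± 38.9 and Mir423 at 1031 ± 86.5 CPM stood below it. Mirlet7c-2, Mir409 and Mir376c share 20 bases with another hairpin and may be undercounted. Of the 333 other detected genes, 50 stood above Mir185 beyond the spread, 246 below it, and 37 could not be ordered against it.

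Around Mir455 stood Mir487b at 542 ± 281, Mirlet7c-1 at 531 ± 212 and Mir132 at 531 ± 23.7 CPM above it, and Mir376a at 483 ± 23.6, Mir330 at 475 ± 79.9 and Mir203 at 464 ± 111 CPM below it. Mir487b, Mirlet7c-1 and Mir376a share 20 bases with another hairpin. Mir132, known to be raised by adrenocorticotropic hormone in adrenal tissue, stood at 547 and 514 CPM in replicates 1 and 2. Mir455 had 80 detected genes above it beyond the spread, 222 below it, and 31 not ordered.

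Around Mir33 stood Mir488 at 16.2 ± 1.32, Mir1188 at 16.2 ± 0.537 and Mir184 at 16.0 ± 0.130 CPM above it, and Mir212 at 15.4 ± 0.171, Mir6236 at 15.1 ± 4.34 and Mir106a at 14.7 ± 2.40 CPM below it. Mir212, which shares a transcript with Mir132, was as low as Mir33. Mir33 had 215 detected genes above it beyond the spread and 39 below it, and 79 could not be ordered. With 2 libraries no likeness of pattern across samples could be measured, so these are neighbours in level only.

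Intronic miRNA genes as a class covered a wide range of levels. Of the 793 annotated miRNA genes in an intron on the same strand, 126 were detected, with a median of 146 CPM, against 125 CPM for all detected genes. Among these 126, 24 stood above Mir185, 38 above Mir455 and 95 above Mir33. Levels of the host messages were not analysed here.

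All 3 genes were higher in replicate 2, and none by 2-fold or more. Differences between libraries are log2(CPM + 1) of replicate 2 minus replicate 1, and a gene was called at an absolute difference of at least 1. Of the 280 genes with a mean of at least 10 CPM, 30 were called, or 10.7%, and 17 of them were higher in replicate 2, or 6.07%, and 13 lower, or 4.64%. This balance turned with scaling, to 12 higher and 17 lower under TMM factors and 8 and 17 with DESeq2 size factors. Of the 3 genes here, 0 were called. No test was run on this comparison, which sets 1 library against another.

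The difference of Mir185 was 0.16, and its ratio of 1.12 had an exact interval of 1.08 to 1.17. The difference of Mir455 was 0.13, with a ratio of 1.09 (1.03 to 1.16). Both ratios were beyond counting error, and both were smaller than the median absolute difference of 0.28 over the 280 genes. They depended on scaling: with DESeq2 size factors, which move the median of all genes from 0.012 to −0.12, they were 0.026 and −0.011. Relative to the median of all genes they were 0.15 and 0.11 under both scalings.

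Mir33 differed most, by 0.77, with a ratio of 1.77 (1.25 to 2.51). Relative to the median of all genes this was 0.76, and 0.77 with DESeq2 size factors. Of the 280 genes, 230 had a smaller absolute difference. Among the 65 other genes within 2-fold of its mean level, the median absolute difference was 0.42, 52 were below that of Mir33 and 9 were at or above 1. The interval of Mir33 spans the 2-fold limit, so a 2-fold difference was not distinguishable from its value at this depth.

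**Figure D3:**
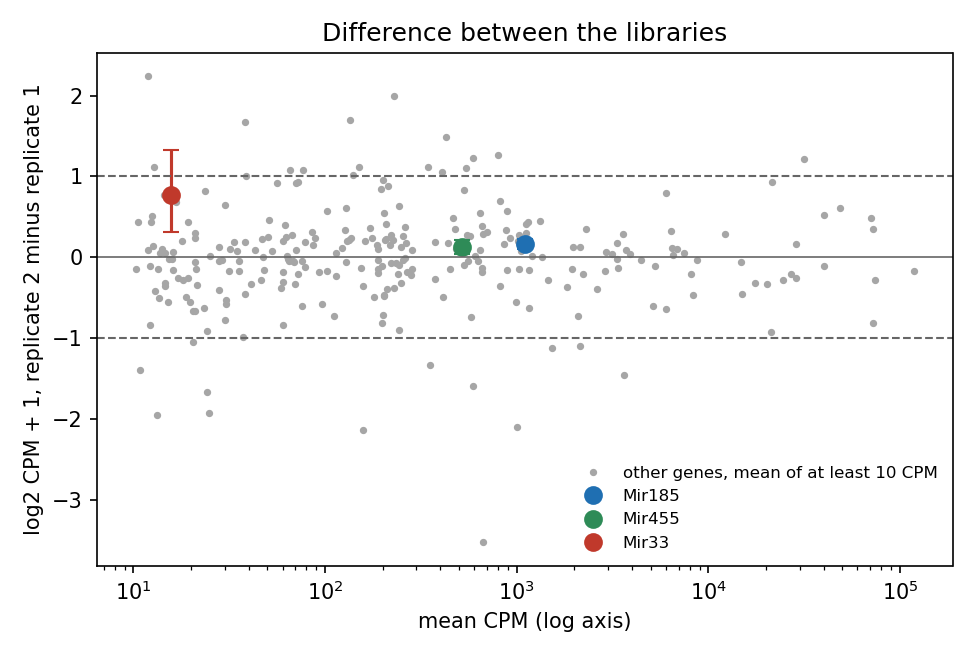
Difference in log2(CPM + 1) between replicate 2 and replicate 1 against mean CPM on a log axis for 280 genes, with the call limits dashed. Bars on the coloured genes are exact 95% intervals of the log2 ratio without pseudocount. Mir185 and Mir455 lie near 0, and Mir33 lies at 0.77 with an interval that crosses the upper limit.

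The share of reads held by markers of other cell types is given for both libraries. Of the 20 detected markers, all but Mir206 had a mean of at least 10 CPM. Among those, Mir122 and Mir451a were at least 2-fold apart, and Mir193b fell just short at −0.99. Of all 280 genes at that level, 10.7% were at least 2-fold apart. In all, 20 of the 23 matched marker genes were detected, and Mir1a-1, Mir133a-1 and Mir194-1 had 0 reads in both. They share 20 bases with another hairpin, so 0 sets no upper limit. The neuroendocrine markers Mir375 and Mir7b held 6.33% and 8.69% of reads in replicates 1 and 2, and the endothelial Mir126a 9.26% and 5.25%. The smooth muscle markers held 2.95% and 2.56%, the erythroid 0.554% and 0.214%, and the adipose 0.319% and 0.357%. The leukocyte markers held 0.0610% and 0.0693%, the liver marker Mir122 0.0257% and 0.00577%, and the kidney markers 0.0109% and 0.00956%. Members of a list did not all move alike. Mir375 had 58718 and 82443 CPM in replicates 1 and 2, and Mir7b 4535 and 4423 CPM. The erythroid Mir451a had 5351 and 1949 CPM, and Mir144, the other erythroid marker that matched, 191 and 187 CPM. The erythroid Mir486a and the neuroendocrine Mir7a-1 and Mir7a-2 matched no gene name. The erythroid and neuroendocrine shares thus cover only part of each list. Mir140, a cartilage marker, held 0.103% and 0.108%, the gonad marker Mir202 0.00190% and 0.00227%, and striated muscle markers 0.000369% and 0.000357%. Their part in the difference of Mir33 was not tested.

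Other miRNA genes reported to act on cholesterol handling or steroid output gave a wide range. Besides the 3, 39 such genes were listed in 4 overlapping lists, with a median of 131 CPM, and 35 of them were detected. Mir185 stood below 6 of the 39, Mir455 below 10, and Mir33 below 29. Beyond the replicate spread, 5 stood above Mir185 and 31 below it, 6 above Mir455 and 26 below it, and 23 above Mir33 and 7 below it. Counts of 18 of the 39 may be too low, because these hairpins have 20 bases in common with another one.

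Among the 15 genes listed for cholesterol export, where Mir33 belongs, the median was 23.6 CPM. Over the 8 of them that share no 20 bases with another hairpin it was 283 CPM. Mir10b was the highest of the 15 at 21218 ± 9307 CPM and Mir19b-2 the lowest, with 0 reads in replicate 1 and 1 in replicate 2. Mir145a, reported to repress Abca1, stood at 631 ± 15.1 CPM, Mir20a at 450 ± 31.8 CPM and Mir106b at 376 ± 35.7 CPM, all above Mir33. Mir144, also reported to repress Abca1, was at 189 ± 2.60 CPM, and Mir148a, reported to repress Abca1, at 150 ± 78.4 CPM. Mir145a and Mir144 are also among the smooth muscle and erythroid markers above, and the cells that hold them were not measured. Below Mir33 were 6 of the 15, among them Mir758 at 2.77 ± 0.251 CPM, which shares 20 bases with Mir411, and Mir301b at 3.01 ± 2.17 CPM.

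The uptake list held 16 genes, Mir185 and Mir455 among them. The median of the 16 was 93.4 CPM, or 140 CPM over the 8 that share no 20 bases with another hairpin. Mir125a, reported together with Mir455 to repress Scarb1 in steroidogenic cells, was highest, with 5700 and 7134 CPM in replicates 1 and 2 and a mean of 6417 ± 1014 CPM. Mir27b was next at 2886 ± 249 CPM and shares 20 bases with Mir27a. Mir185 was the third of the 16 and Mir455 came after Mir27a at 665 ± 94.8 CPM. Mir223 and Mir96, both reported to repress Scarb1, were lower than Mir185, at 56.0 ± 24.9 and 4.94 ± 2.40 CPM. Mir223 is also among the leukocyte markers above. Mir199a-1 was the lowest, with 1 read in replicate 1 and 0 in replicate 2, and shares 20 bases with Mir199a-2 and Mir199b.

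The sterol synthesis list held 11 genes with a median of 157 CPM. Mir29a was highest at 8682 ± 129 CPM and Mir96 lowest. Mir342, reported with Mir185 to repress the sterol regulatory factors, was at 413 ± 97.7 CPM. Mir182 and Mir183, from the cluster with Mir96 that is known to be induced by the product of Srebf2, were at 200 ± 90.4 and 129 ± 38.3 CPM, and Mir33, from inside Srebf2, was below both. The steroid output list also held 11 genes, with a median of 203 CPM, Mir125a highest and Mir212 lowest. Mir21a stood at 3128 ± 53.3 CPM and Mir214 at 593 ± 336 CPM.

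Of the 39 listed genes, 31 had a mean of at least 10 CPM. Of these, 6 were at least 2-fold apart, or 19.4%, against 10.7% of the 280 genes, and 4 of the 6 were higher in replicate 2. Under TMM factors 4 were higher and 3 lower, and with DESeq2 size factors 3 and 3. The higher ones, named after their values were seen, were Mir26a-1, Mir128-1, Mir148a and Mir214, and the lower ones Mir122 and Mir29c. Of these, Mir26a-1, Mir128-1 and Mir29c share 20 bases with another hairpin, and Mir26a-1 had only 24 and 63 reads in replicates 1 and 2. Mir122, the abundant liver miRNA, had 257 CPM in the first library and 57.7 CPM in the second. The median difference of the 31 was 0.12, against 0.012 over the 280 genes. With DESeq2 size factors these medians were −0.016 and −0.12.

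**Figure D4:**
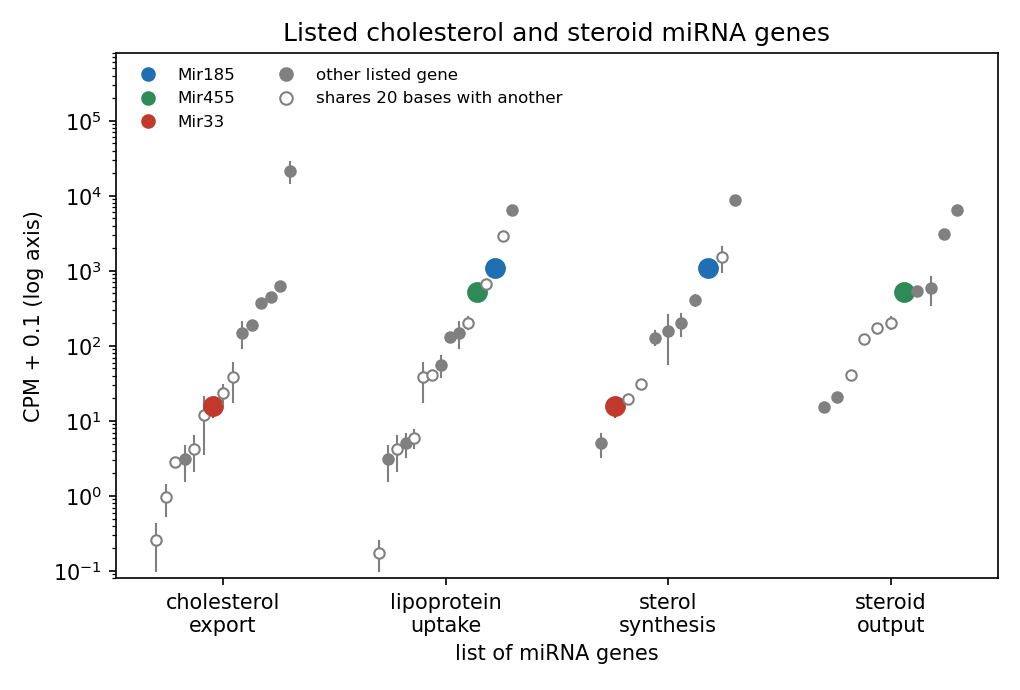
Mean CPM plus 0.1 on a log axis for the genes of each list, ordered by level, with a line joining replicates 1 and 2 and open circles for genes that share 20 bases with another hairpin. Mir185 and Mir455 lie in the upper part of the uptake list. Mir33 at 15.7 CPM lies just below the median gene of the export list, with 6 of 15 genes below it. In the synthesis list 1 of 11 genes lies below it.

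The seeds were compared with the 3′ untranslated regions (UTRs) of 33 genes of cholesterol, steroid and fatty acid handling. This was done to show where each arm could pair. A match is the 7 letters complementary to seed bases 2 to 8 on the message strand, in the longest annotated UTR of the gene. It describes sequence and shows no regulation in these glands, where messages were not measured. The 33 genes were chosen with published targets of these miRNAs in mind, so their share of matches is no independent support. Their UTRs had a median of 1004 bases, and those of all 20972 genes searched 955 bases. In all, 16 of the 33 genes, or 48.5%, held a match to any of the 5 arms, against 42.0% of all UTRs. They held 32 matches.

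The seed of miR-33-5p, matched by CAATGCA, occurred in 6 of the 33 UTRs, or 18.2%, and in 7.08% of all UTRs. It was in Abca1, Abcg1, Cpt1a, Crot, Hadhb and Prkaa1. Abca1 and Abcg1 export cholesterol, and were 2 of the 7 genes listed under export. The other 4 act in fatty acid oxidation or its control, and were all 4 genes listed for it. Abca1 had 3 matches and Abcg1 had 2. At least 3 were present in 15 of the 20972 UTRs, and at least 2 in 138. Both UTRs are long, with 3156 bases in Abca1 and 3703 in Abcg1. Among the 2490 UTRs at least as long as that of Abca1, 12 had at least 3 matches. Among the 1742 at least as long as that of Abcg1, 83 had at least 2. In each of these UTRs the matches lie close together, as the stretches below show, with the matched letters in capitals.
Abca1, chr4:53033786-53033809 of GRCm38, minus strand: tCAATGCAATGCActtCAATGCAa
Abcg1, chr17:31115001-31115019 of GRCm38, plus strand: gCAATGCAacgCAATGCAg

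In Abca1 the first match starts 135 bases into the UTR and overlaps the second. The third follows within the same stretch of 24 bases. In Abcg1 the first starts at base 717. The seed match of miR-33-3p, AAACATT, was in 7 of the 33 UTRs, or 21.2%, and in 19.0% of all. It included 1 match in Srebf2 itself, the host of Mir33, which held none for miR-33-5p.

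Scarb1, the lipoprotein receptor through which both Mir185 and Mir455 were reported to act, held 1 match to miR-185-3p and 1 to miR-455-5p in a UTR of 779 bases. It held none to miR-33-5p, miR-33-3p or miR-455-3p. Its pairing with miR-185-5p was not analysed here, so the match to miR-185-3p is not given as the site of the reported action. The stretches below show the matched letters in capitals with the bases before them.
Scarb1 with miR-185-3p, chr5:125277571-125277592 of GRCm38, minus strand: actctagctgctgtCAGCCCCt
Scarb1 with miR-455-5p, chr5:125277707-125277728 of GRCm38, minus strand: ctgtccgcacgcacGGCACATg

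The match to miR-185-3p, CAGCCCC, was in 7 of the 33 UTRs, or 21.2%, and in 14.5% of all. The match to miR-455-5p, GGCACAT, was in 2 of 33, or 6.06%, and in 7.83% of all. The match to miR-455-3p, TGGACTG, was in 2 of 33, or 6.06%, and in 11.8% of all. The groups were broad: the one named uptake included Soat1, which stores cholesterol as esters, and the one named export included Npc1 and Npc2. By group, 4 of 5 uptake genes, 4 of 7 export genes and 4 of 4 fatty acid genes held a match to any of the 5 arms. So did 2 of 7 synthesis genes and 2 of 10 steroid genes. With 42.0% of all UTRs holding one and 4 to 10 genes in a group, these counts are descriptions of the listed genes only.

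**Figure D5:**
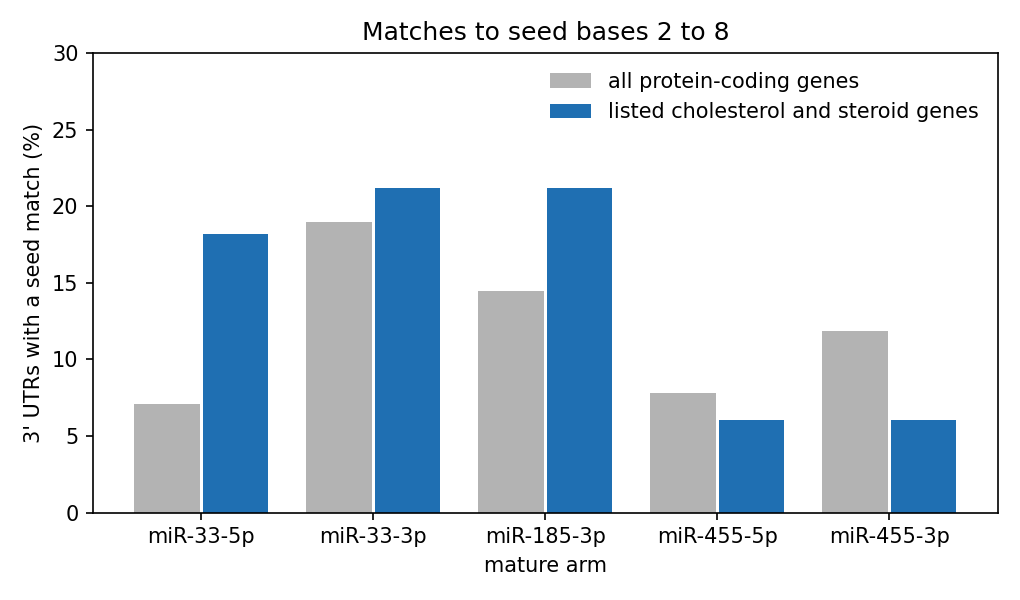
Percent of 3′ UTRs that hold a match to seed bases 2 to 8 of each arm, for all 20972 genes in grey and for the 33 listed genes in blue. The 33 include 4 genes of fatty acid oxidation, all with a match to miR-33-5p. For miR-33-5p the shares are 7.08% and 18.2%, and for miR-455-3p the listed share of 6.06% is below the 11.8% of all genes.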

How the data were processed

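The authors deposited, for each library, raw read counts per miRNA gene for both strands, the strand of the gene and the opposite strand, with assembly mm10 and annotation GENCODE M21, as the accompanying deposited text states. Neither the aligner nor its settings are given in the sources used here. Columns without a header were identified by their totals. The 3 genes and the lists were chosen with earlier results of these data known. Sense counts were scaled to 1000000 sense miRNA reads. Lines that name no gene (unmapped, multimapping and unassigned reads), 48.6% and 52.4% of the reads of replicates 1 and 2, were left out of these totals. GENCODE M21 held each of the 2202 identifiers, and 23 of 26 marker names matched a gene. Strain differences within the hairpins were not tested.

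No test across animals was possible with 1 group. Wilson and exact intervals came from SciPy 1.17.1. Alternatives used edgeR 4.0.16 (TMM) and DESeq2 1.42.0 (size factors). The steps were tested on simulated data. Text names the 3 genes, the 3 genes next above and below each by mean CPM, genes sharing a seed, and listed genes, with at least the highest and lowest of each list. Some genes first listed for seed matches are not reported here. Hairpin positions and UTRs came from GENCODE M21, mature sequences from RefSeq.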

Additional observations from a re-analysis of the deposited data

How the results depend on the processing

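Of 44 alternative values, 29 stayed within the replicate spread, the counting interval or 1.5 times the count. A further 12, in which 1 library was left out of a mean of 2, always fall within the SD and say nothing of stability. Some of the 29 say nothing of it either. The log2 differences without pseudocount lie by construction within the counting intervals they were set against. The ratios between the genes with the column for both strands rest on the same reads as the reported ratios. The scalings of the listed genes' 2-fold differences were added after seeing the data. With all reads of the table as the total, the means were 7.70 CPM for Mir33, 546 CPM for Mir185 and 257 CPM for Mir455, since this total includes reads of no gene. With the column for both strands, Mir185 was at 1241 CPM and Mir455 at 583 CPM, and their own reads were the same. The log2 difference of Mir185 between the libraries was 0.061 under TMM, 0.026 under DESeq2 size factors, 0.053 with all reads as the total and 0.098 with both strands. That of Mir455 was 0.024 under TMM, −0.011 under DESeq2 size factors and 0.016 with all reads as the total. That of Mir33 ran from 0.63 to 0.82 over all 5 alternatives. With 1 library at a time, Mir33 ranged from 11.4 to 20.1 CPM, Mir185 from 1044 to 1169 and Mir455 from 497 to 542 CPM. The log2 ratio of Mir185 to Mir33 then ranged from 5.79 to 6.40, that of Mir185 to Mir455 from 1.07 to 1.11 and that of Mir455 to Mir33 from 4.69 to 5.33.

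The 30 genes at least 2-fold apart, 17 higher and 13 lower in replicate 2, became 58 of 703 genes with no filter on low counts and 19 of 173 genes at a mean of at least 100 CPM. Under TMM 12 were higher in replicate 2 and 17 lower, and DESeq2 size factors gave 8 and 17. The 32 seed matches became 14 when an A was required after the match. No paired analysis was possible because there is 1 group. The value of Mir33 rests on 77 and 62 reads, and depth limits it more than the other genes.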

Other observations

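Nr5a1, the gene of the steroidogenic factor that drives adrenal cortex development, held 4 matches to the seed of miR-185-3p in a 3′ UTR of 1361 bases, chosen after its values were seen. At least 4 such matches were present in 34 of the 20972 UTRs, or 0.162%, and in 30 of the 8063 UTRs at least as long. Of these 4, 2 were followed by an A. Soat1, which stores cholesterol as esters, held 2 matches to miR-455-3p in a UTR of 6534 bases, and at least 2 were present in 1.30% of UTRs and in 47 of the 341 at least as long. Among the steroid genes, Star, whose protein carries cholesterol into mitochondria, held no match to any of the 5 arms in a UTR of 3096 bases. Nor did Cyp11a1, whose enzyme makes pregnenolone from cholesterol, but its UTR has only 171 bases. Which arm of each hairpin the adrenal reads came from was not measured, so these are matches of sequence only.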
